A study of Mus musculus with 4 samples.

Results

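Strong isolated Meis-only sites are places in the mouse embryo trunk where Meis proteins gave a high-scoring peak, where Prep proteins gave no overlapping peak and where no further Meis peak lay close by. They were taken from a chromatin immunoprecipitation sequencing (ChIP-seq) experiment, in which DNA fragments bound by a protein are pulled down with an antibody and sequenced. A Meis peak belonged to the set when its score was at least 13.6, when no Prep peak overlapped it by 1 bp or more, and when the centre of no other Meis peak lay within 10 kb of its own. This left 990 of the 5686 peaks of the Meis list (17.4%, 95% Wilson interval 16.4 to 18.4%), out of 9017 peaks in the Meis and Prep lists together. They were compared with 3578 isolated Meis-only peaks of lower score.

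Both Meis and Prep bind DNA through a homeodomain of the TALE class, in which a short loop of the domain is extended. Both form complexes with Pbx proteins, and Meis proteins are also known as partners of Hox proteins, which pattern the trunk along its head-to-tail axis. Both families recognise related DNA motifs in vitro, which makes sites with a peak of only the former a point of interest in comparing these families.

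The study used wild-type C57BL/6 embryos at embryonic day 11.5, from which trunks were dissected and broken up into single cells before crosslinking. The series used here has 4 libraries, 1 with antibodies to Meis1/2 (K830, K844), 1 with an antibody to Prep1/2 (N15, Santa Cruz) and 2 input libraries made without antibody. All come from the same tissue, stage and strain and carry no mutation or treatment per their labels, and the labels do not say how many embryos went into each. The antibodies are labelled for Meis1 and Meis2 together and for Prep1 and Prep2 together, so the paralogs of a pair cannot be told apart. A trunk holds many cell types, so fewer cells with a bound site and weaker binding in each cell cannot be told apart. With 1 library per antibody there is no replicate, and nothing measures the spread between embryos or experiments. The read depth is unknown. Peaks of a list are not replicates either, so the intervals below cover the counting of peaks only, and no test of significance across peaks was made. The labelled tissue was not checked against markers, since no expression was measured.

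These sites were chosen by their Meis score, by the absence of an overlapping Prep peak and by the distance to the next Meis peak, and the values of these measures are given as a description. Of the 1424 Meis peaks with a score of at least 13.6, 223 (15.7%) overlapped a Prep peak, of which 172 were isolated and 51 were not. Another 211 (14.8%) had no Prep overlap but a Meis neighbour within 10 kb, and 990 (69.5%) had neither. Among the 4262 peaks of lower score, 184 (4.32%) overlapped a Prep peak and 3578 (84.0%) were isolated and Meis-only. The strongest Meis-only peak of the list, with a score of 75.1, was not in the set because another Meis peak lay close to it.

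Most of the sites lay near the lower end of the score range. The range of scores was 13.6 to 58.7, the median 16.4 and the quartiles 14.8 and 19.0. The median place in the Meis list was 777.5 of 5686, place 1 having the highest score. The score is the authors' own value for each peak, on a scale that is not stated, and it ranks peaks within this list. Scores from 15 up to 20 held 515 of the sites (52.0%), and 282 (28.5%) stood below 15. Only 193 (19.5%) reached 20, 35 reached 30 and 7 reached 40. The score limit cut through a smooth part of the range. The 9 sites with the lowest score had 13.61, and the 12 isolated Meis-only peaks just outside had 13.55. The 5 last sites inside lay on chromosome 3 at 5349541 to 5349717, chromosome 4 at 97506348 to 97506607, chromosome 7 at 79933347 to 79933690 and chromosome 9 at 57976784 to 57977012 and 120562434 to 120562610. The first 5 outside lay on chromosome 1 at 120994508 to 120994719 and 192729501 to 192729681, chromosome 12 at 72438837 to 72439087, chromosome 13 at 43254811 to 43255029 and chromosome 14 at 20806264 to 20806564. Equal scores were ordered by peak name, so these are 5 of the 9 and 5 of the 12 peaks, no nearer to the limit than the rest.

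**Figure D1:**
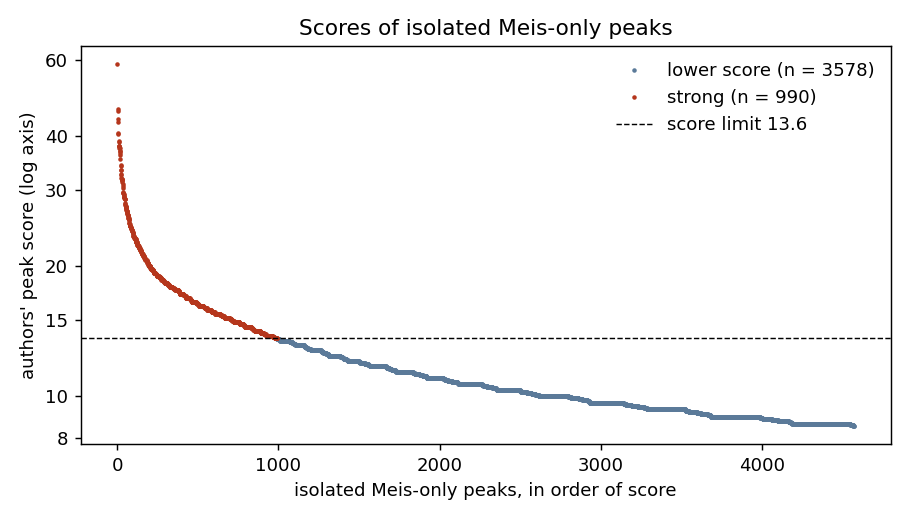
Score (the authors' value, log axis) of each of the 4568 isolated Meis-only peaks, in order of score. Red points are the 990 strong peaks and blue points the 3578 of lower score; the curve passes the dashed limit of 13.6 without a step, and only 35 peaks reach 30.

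The strongest site lay on chromosome 8 at 27881020 to 27881202 (mm9, as are all positions). Its score of 58.7 was 8th in the Meis list. The nearest Meis peak had a score of 13.2 and lay 22.7 kb away, and the nearest Prep peak had a score of 10.5 and lay 92.8 kb away. The next site, on chromosome 7 at 6883208 to 6883416, scored 46.2 and was 200.1 kb from a Prep peak. A site on chromosome 2 at 17970380 to 17970575 scored 45.8 and had a Prep peak 0.927 kb away, which it did not overlap. That Prep peak had a score of 8.54, below the Prep median of 10.5.

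Sites with scores above 40 also lay on chromosome 1 at 140281903 to 140282065 (43.8) and at 191448181 to 191448368 (40.4). Others were on chromosome 8 at 90360737 to 90360906 (43.1) and chromosome 13 at 73032568 to 73032779 (40.7). The first of these 4 was 233 kb from a strong Prep peak with a score of 150, place 178 of 3331 in the Prep list. The site at 191448181 was the farthest of the 20 strongest from another Meis peak, at 394 kb.

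Below 40 came sites on chromosome 18 at 12125643 to 12125846 (score 38.9), chromosome 16 at 7938058 to 7938189 (38.8) and chromosome 2 at 169632514 to 169632719 (38.0). They were followed by chromosome 9 at 102552349 to 102552583 (37.9), chromosome 3 at 69149323 to 69149595 (37.9), chromosome 6 at 94542766 to 94542956 (37.6) and chromosome 4 at 81895521 to 81895701 (37.6). The site on chromosome 16 was the narrowest of the 20 strongest, at 132 bp. The chromosome 2 site had a strong Meis neighbour with a score of 23.1 at 16.5 kb, and the chromosome 6 site was 1651 kb from any Prep peak, the largest such distance among the 20.

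The last of the 20 strongest were on chromosome 14 at 121533677 to 121533902 (score 37.0), chromosome 2 at 173207788 to 173208011 (36.9) and chromosome 15 at 103032644 to 103032839 (36.5). Then came chromosome 6 at 31837135 to 31837305 (36.2), chromosome 5 at 108429967 to 108430240 (35.3) and chromosome 3 at 151555022 to 151555215 (34.3). The site on chromosome 14 had a Meis neighbour with a score of 26.9 at 25.8 kb. The site on chromosome 6 was 50.7 kb from a Prep peak that lay next to a further site of the set, described with the Prep neighbours below.

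As a set, the 20 strongest sites spread over 14 chromosomes. Their distances to the nearest Prep peak ran from 0.927 to 1651 kb with a median of 184 kb. Of the 20, 6 had a Prep peak within 100 kb, where 23.1% of all isolated Meis-only peaks had one. Distances to the nearest Meis peak ran from 16.5 to 394 kb with a median of 100.2 kb. The nearest Meis peak reached a score of 13.6 at 4 of the 20 and overlapped a Prep peak at 0 of the 20. Of all isolated Meis-only peaks 23.6 and 6.52% had such a neighbour, and 20 sites are too few to tell these shares apart. The nearest Prep peaks were mixed in strength, with scores of 5.25 to 150 and a median of 9.52, and 8 of the 20 belonged to the Prep peaks above the middle place of that list. Over the whole set the nearest Prep peak was above the middle place at 436 sites (44.0%), against 1602 weaker sites (44.8%; 44.6% of all isolated Meis-only peaks), a difference of -4.21 to 2.77 points (95% Newcombe interval).

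The first comparison asked whether Prep peaks lay nearer to strong or to weak isolated Meis-only sites, beyond the overlap that the rule removed. The share with a Prep peak was lower at strong sites within 10, 25 and 50 kb, and the intervals included 0 at the shorter and longer distances. The shares are cumulative, so those within 25 and 50 kb contain the sites counted within 10 kb and are not separate results. The rule had already removed the peaks with a Prep overlap, which were 15.7% of the peaks at or above 13.6 and 4.32% of those below, so the values describe what the rule left and not all Meis peaks. A Prep peak centre lay within 10 kb of 15 of the 990 strong sites (1.52%, 95% Wilson interval 0.920 to 2.48%), against 111 of 3578 sites of lower score (3.10%, 2.58 to 3.72%), where the share over all 4568 isolated Meis-only peaks was 2.76%. The difference was -1.59 percentage points, with a 95% Newcombe interval of -2.45 to -0.487 points. Against the Prep peaks of the higher-scoring 50% alone, the difference for the same sites was -0.684 points, and its interval of -1.32 to 0.203 included 0. When the sites were also chosen anew against that shorter Prep list (1114 strong and 3675 weaker sites), it was -0.591 points (-1.22 to 0.259).

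At larger distances the shares came closer in proportion. Within 25 kb the shares were 5.15 and 7.13% (6.70% of all isolated Meis-only peaks), a difference of -1.98 points (-3.48 to -0.225). Within 50 kb they were 10.5 and 13.2% (12.6% of all), a difference of -2.66 points (-4.76 to -0.334). Within 100 kb, 211 strong sites (21.3%, 18.9 to 24.0%) and 843 weaker ones (23.6%, 22.2 to 24.98%) had a Prep peak, against 23.1% of all, and the interval of the difference, -5.07 to 0.740 points, included 0. Within 250 kb, 422 strong sites (42.6%) and 1588 weaker ones (44.4%; 44.0% of all) had a Prep peak, a difference of -5.21 to 1.75 points. Within 1000 kb the shares were 80.8 and 82.2% (81.9% of all; difference -4.26 to 1.25 points). The intervals at the shortest distances included 0 too. Within 1 kb a Prep peak was found at 5 strong sites (0.505%) and at 26 weaker ones (0.727%; 0.679% of all), and within 5 kb at 11 (1.11%) and 59 (1.65%; 1.53% of all). The intervals of these differences were -0.665 to 0.489 and -1.22 to 0.405 points.

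**Figure D2:**
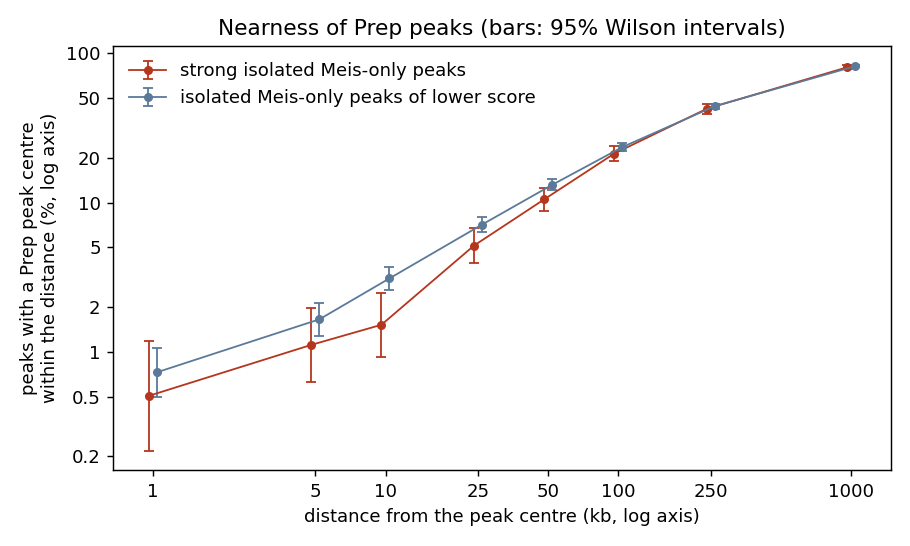
Share of peaks (%, log axis) with a Prep peak centre within the distance on the x axis (kb, log axis), for the 990 strong isolated Meis-only peaks (red) and the 3578 of lower score (blue), with 95% Wilson intervals as bars and points shifted sideways for sight. The red points lie below the blue ones at each distance, with 1.52 against 3.10% at 10 kb and shares of 80.8 and 82.2% at 1000 kb.

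Ordered by score and divided into 10 slices of 456 or 457 peaks, the isolated Meis-only peaks had a Prep peak within 10 kb at 1.09% (5 of 457) in the highest slice and 1.75% (8 of 457) in the next. The highest share, 5.25% (24 of 457, 3.55 to 7.70%), was in the 9th slice, with 3.73% (17 of 456) in the last. The order was not even, since the 7th slice also had 1.75%. Peaks of equal score stood on both sides of each slice limit and were ordered there by peak name. At 100 kb the slices ranged from 20.1 to 26.0% with overlapping intervals.

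**Figure D3:**
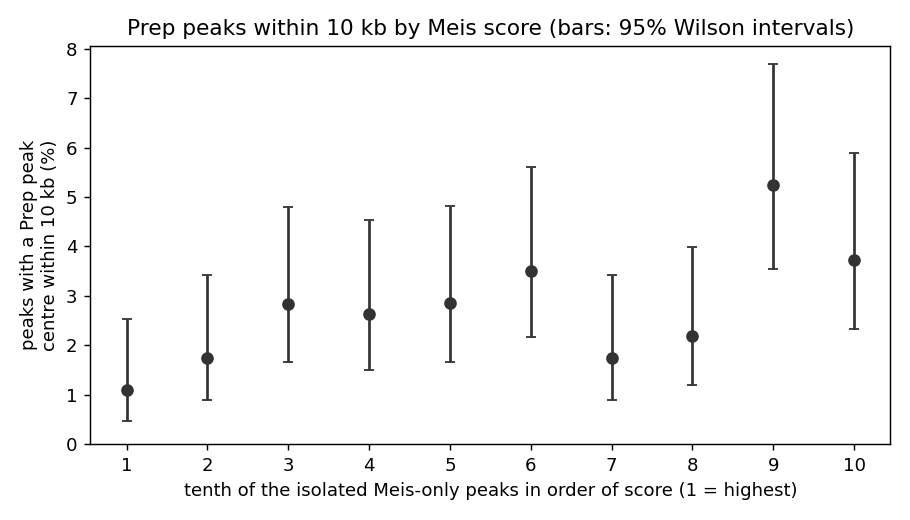
Share of peaks (%) with a Prep peak centre within 10 kb in each of 10 slices of the 4568 isolated Meis-only peaks in order of score, slice 1 being the highest, with 95% Wilson intervals as bars. The points run from 1.09% in slice 1 to 5.25% in slice 9, and slice 7 falls back to 1.75%.

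The 15 strong sites with a Prep peak within 10 kb lay on 10 chromosomes. Their own Meis scores were 13.7 to 45.8 (median 15.2), and 2 of them reached 20. The 5 closest came within 1 kb. A Meis peak on chromosome 17 at 26057080 to 26057332, scoring 13.7 and thus near the limit, had a Prep centre at 0.298 kb whose score of 284 was 14th in the Prep list. On chromosome 6 at 31785996 to 31786272 (score 14.9) the Prep centre lay 0.364 kb away with a score of 5.91. The strong site at 31837135 named above was the nearest Meis neighbour of this one, at 51.1 kb. On chromosome 11 at 32001211 to 32001396 (14.99) it lay 0.542 kb away (5.25), and on chromosome 2 at 27395315 to 27395507 (17.7) it lay 0.551 kb away (42.7). The fifth was the chromosome 2 site at 17970380 with its Prep peak at 0.927 kb.

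Weak and strong Prep peaks were both found near these sites. Of the 15 Prep peaks, 9 stood above the middle place of their list, and their median score was 12.5 (range 5.25 to 284). The Prep peaks within 10 kb of the 111 weaker Meis sites had a median score of 11.2 (95% interval of the median 9.19 to 17.7). Prep peaks of the higher-scoring 50% lay within 10 kb of 9 strong sites (0.909%) and 57 weaker ones (1.59%; 1.44% of all isolated Meis-only peaks), the difference of -0.684 points given above. Those of the lower-scoring 50% did so at 6 (0.606%) and 55 (1.54%; 1.34% of all), a difference of -1.49 to -0.138 points. Within 100 kb the shares with a Prep peak of the upper part of the list were 11.1% (110) and 11.9% (427; 11.8% of all), and of the lower part 13.6% (135) and 15.1% (539; 14.8% of all), with intervals of -2.94 to 1.52 and -3.76 to 1.12 points. Signal below the lowest listed Prep score of 5.03 does not appear in the list.

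Some strong sites stood far from any Prep peak. In all, 190 (19.2%) were more than 1 Mb from the nearest Prep centre, against 636 weaker sites (17.8%). The median distance of strong sites was 323 kb (quartiles 115 and 760 kb), against 306 kb (110 and 739 kb) for weaker sites. The 5 farthest, chosen after their values were seen, all lay on chromosome 16 between positions 77238860 and 79355377, 6924 to 7714 kb from a Prep peak. They included a site at 77653672 to 77653906 with a score of 31.7, 74th in the Meis list. All 5 lay in 1 stretch with no Prep peak between 70314731 and 87069573. The farthest weaker site was 7892 kb from a Prep peak. Chromosome 16 also had the largest median distance of strong sites to Prep peaks, 1184 kb over 33 sites, where the chromosome 17 median over 37 sites was 215 kb.

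The second comparison asked how the strong sites lie relative to other Meis peaks beyond the 10 kb that the rule kept free. The shares of strong and weak sites with a Meis neighbour differed by less than their counting error at each distance tried. Another Meis centre lay within 100 kb of 495 of the 990 strong sites (interval 46.9 to 53.1%) and of 1727 weaker ones (48.3%, 46.6 to 49.9%; 48.6% of all isolated Meis-only peaks), and the interval of the difference was -1.78 to 5.24 points. Within 25 kb the shares were 15.1% (149) and 12.8% (458; 13.3% of all), a difference of -0.130 to 4.84 points, and within 50 kb 31.8% (315) and 28.9% (1035; 29.6% of all), a difference of -0.312 to 6.20 points. Within 250 kb they were 76.2% (754) and 73.6% (2634; 74.2% of all), and within 1000 kb 96.2% (952) and 97.1% (3475; 96.9% of all), with differences of -0.551 to 5.49 and -2.43 to 0.232 points. The median distance was 99.5 kb (quartiles 39.5 and 234 kb) for strong sites and 106 kb (42.5 and 261 kb) for weaker ones. The nearest Meis peak was itself at or above 13.6 at 239 strong sites (24.1%) and 837 weaker ones (23.4%; 23.6% of all), a difference of -2.18 to 3.83 points. The median score of that neighbour was 10.7 for both classes.

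Strong sites were, however, more often close to each other. Another strong isolated site lay within 100 kb of 168 strong sites (17.0%, 14.8 to 19.4%), whereas a strong isolated site lay within 100 kb of 466 weaker ones (13.0%, 12.0 to 14.2%; 13.9% of all isolated Meis-only peaks). The difference was 3.95 points (1.46 to 6.63). It was 1.81 points (-0.434 to 4.31) when sites had to be isolated by 20 kb in place of 10 kb. Within 1 Mb the shares were 63.7% (631 sites) and 63.1% (2258; 63.2% of all), with a difference of -2.79 to 3.97 points. Each close pair enters from both of its ends, so these intervals are too narrow.

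The closest pair of strong sites lay on chromosome 8, with a site at 24502762 to 24502957 (score 26.2) and a site at 24514782 to 24515018 (15.2), 12.0 kb apart. A pair on chromosome 9, at 68783537 to 68783767 (17.0) and 68795629 to 68795788 (25.01), was 12.1 kb apart. Both pairs were chosen after their values were seen. Over all 990 sites, the distance to the next strong site had a median of 610 kb (quartiles 174 and 1438 kb).

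The nearest Meis neighbour overlapped a Prep peak at 51 strong sites (5.15%) and 247 weaker ones (6.90%; 6.52% of all). The interval of the difference, -3.25 to -0.00661 points, came close to 0, and it included 0 or the sign turned under most of the other settings. The proportions of sites with Prep peaks nearby also went with the presence of Meis peaks. Among strong sites with a Meis peak within 100 kb, 120 of 495 had a Prep peak within 100 kb (24.2%, 20.7 to 28.2%). Among those without, 91 of 495 did (18.4%, 15.2 to 22.0%). The same shares for weaker sites were 27.4 and 19.99%. Neither a Meis nor a Prep peak lay within 100 kb of 404 strong sites (40.8%) and 1481 weaker ones (41.4%; 41.3% of all isolated Meis-only peaks).

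The 5 strong sites farthest from other Meis peaks were several megabases from the next one. A site on chromosome 5 at 58619961 to 58620215, scoring 17.9, was 3938 kb from the next Meis peak. A site on chromosome 1 at 115936020 to 115936249 (score 18.1) was 3793 kb away, and a site on chromosome 7 at 13403544 to 13403822 (14.4) was 3317 kb away. The other two were on chromosome 8 at 77617361 to 77617552 (16.2, 2854 kb) and chromosome 6 at 9770529 to 9770720 (15.2, 2297 kb). The chromosome 7 and chromosome 8 sites nonetheless lay 37.6 and 59.5 kb from Prep peaks with scores of 12.5 and 154. In all, 38 strong sites (3.84%) were over 1 Mb from any Meis peak, against 103 weaker ones (2.88%), which reached 11339 kb. Of the 38, 20 were also over 1 Mb from any Prep peak, where 19.2% of all strong sites were.

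When strong sites with gaps of up to 1 Mb were joined, the 990 sites formed 572 groups. Of these, 359 held a single site and 115 a pair, and the 24 groups of 5 or more took in 151 sites. The group with most sites lay on chromosome 18 at 53101943 to 55893546. Its 11 sites had modest scores of 14.0 to 18.1, and 32 Meis peaks lay in it against 1 Prep peak. The whole of chromosome 18 had 241 Meis and 80 Prep peaks. The stretch was picked for its Meis-only sites, so its counts are a description only. On chromosome 5 at 148964300 to 151193301, 10 strong sites with scores of 13.8 to 28.6 shared the stretch with 8 weaker isolated ones and 4 Prep peaks. Of the 18 Meis peaks of that stretch 0 overlapped a Prep peak. The rule itself excluded an overlap at the 10 strong sites, so only the other 8 Meis peaks of the stretch could have had one. A peak with an overlap would not have been counted among the weaker isolated Meis-only sites. These 8 peaks are too few to set beside the 7.16% of all Meis peaks that overlapped a Prep peak.

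The group on chromosome 2 at 169030001 to 170703504 held 9 strong sites with scores of 16.02 to 38.0. Its densest part had 3 of them at 169616041, 169632514 and 169657781, with scores of 23.1, 38.0 and 17.9. The 9 sites on chromosome 14 at 65568595 to 69010314 were spread more widely, over 3442 kb, with scores of 14.5 to 26.5. Of the 2 groups of 8 sites, the one with the higher top score took the fifth place. It was the most compact of the 5 and held the strongest site of the set. Its 8 sites on chromosome 8 at 27415482 to 28024939 covered 609 kb, with gaps of 45.9 to 116 kb and scores of 14.3 to 58.7. In that stretch lay 29 Meis peaks, 17 of which were at or above 13.6, and 17 of the 29 had a Meis neighbour within 10 kb. The 3 Prep peaks there all overlapped a Meis peak, where 12.2% of all Prep peaks did. With only 3 Prep peaks, in a stretch picked for its many Meis sites, this is a description only. The other group of 8 lay on chromosome 7 at 78496349 to 82354292, over 3858 kb, with scores of 13.6 to 22.1.

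**Figure D4:**
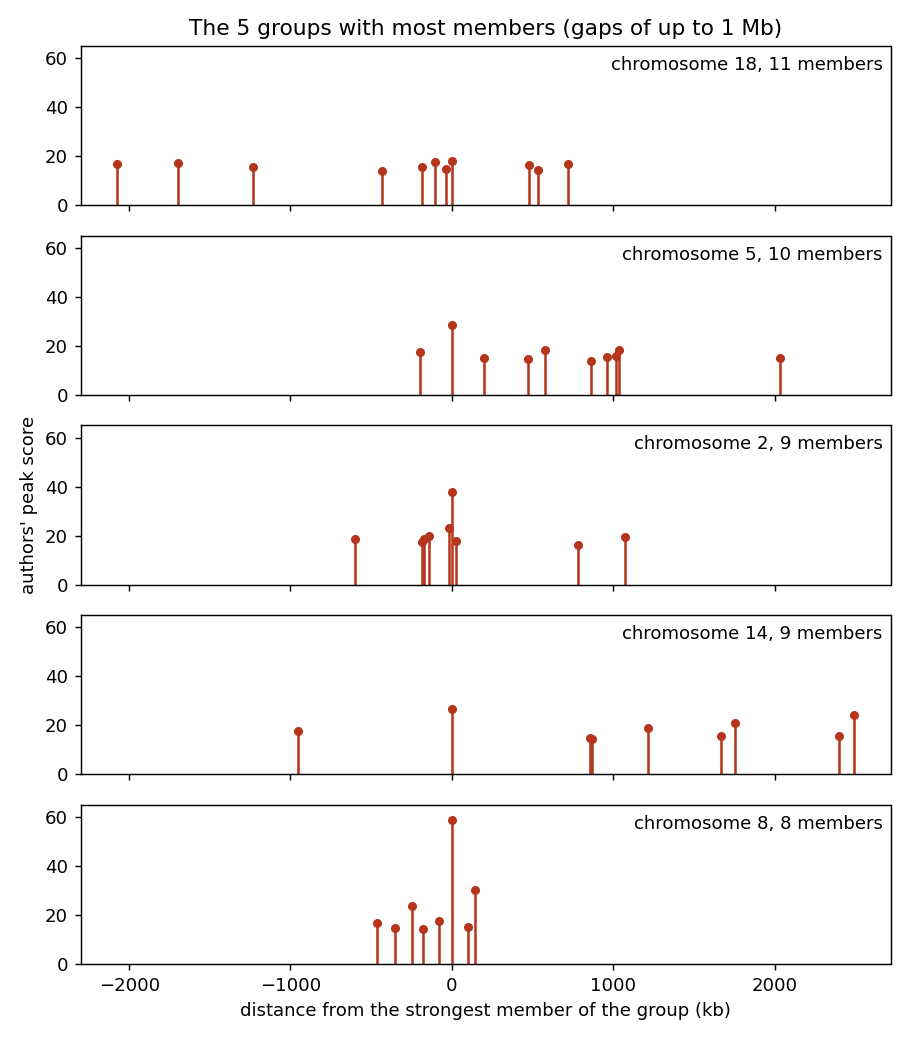
Score (the authors' value) of each strong isolated Meis-only peak in the 5 groups with most members (of 2 groups of 8, the one with the higher top score), against its distance from the strongest member (kb). The chromosome 8 group holds 8 sites within 609 kb around the peak of 58.7, while the 11 sites of the chromosome 18 group stay between 14.0 and 18.1.

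Dense runs of Meis peaks, defined here as at least 4 peaks with centre gaps of up to 10 kb, cannot contain sites of the set. Of 12 such runs, 10 had a strong isolated site within 1 Mb, with a median of 2.5 and a range of 0 to 8, where 63.2% of all isolated Meis-only peaks had one. The 12 runs are not all separate, since a pair on chromosome 6 and a pair on chromosome 14 each lay within 1 Mb of each other. A stretch of 2 Mb held 0.641 to 0.986 strong isolated sites on average on the chromosomes of these runs. Strong and weaker isolated Meis-only peaks themselves had on average 1.34 and 1.20 other strong isolated sites within 1 Mb. Isolated sites of lower score numbered 4 to 15 around a run, with a median of 7. A stretch of 10 Mb held from 13.5 (chromosome 15) to 18.0 (chromosome 18) of them on average on the chromosomes of these runs. Weaker isolated sites were thus also denser around the runs than on their chromosomes, and the greater number near runs was not particular to strong sites. The run of 5 peaks on chromosome 8 at 28095188 to 28119834 had most, the 8 sites of the group just described, the nearest of them 70.4 kb away. The paired runs on chromosome 6, at 52108281 to 52128618 and 52140862 to 52176538, had 3 sites within 1 Mb, the nearest at 151 kb from the first with a score of 14.3. The run on chromosome 2 at 74572564 to 74591402 had 1, at 94.4 kb with a score of 22.7. The run on chromosome 15 at 103120062 to 103135883 had 2, the nearest being the site at 103032644 with a score of 36.5, 87.3 kb away. The run of 10 peaks on chromosome 11 at 96180588 to 96213320 had 0, and its nearest strong isolated site was 1617 kb away.

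Strong sites were found on all 20 chromosomes of the Meis list, with 4 on X and 86 on chromosome 2. As a share of the isolated Meis-only peaks of a chromosome, they ranged from 10.5% on X (4 of 38, 4.17 to 24.1%) to 25.9% on chromosome 1 (83 of 321, 21.4 to 30.9%), against 21.7% over all. Among the 20 Wilson intervals, only that of chromosome 7 left out 21.7% (41 of 256, 12.0 to 21.0%). The intervals were not adjusted for the number of chromosomes.

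**Figure D5:**
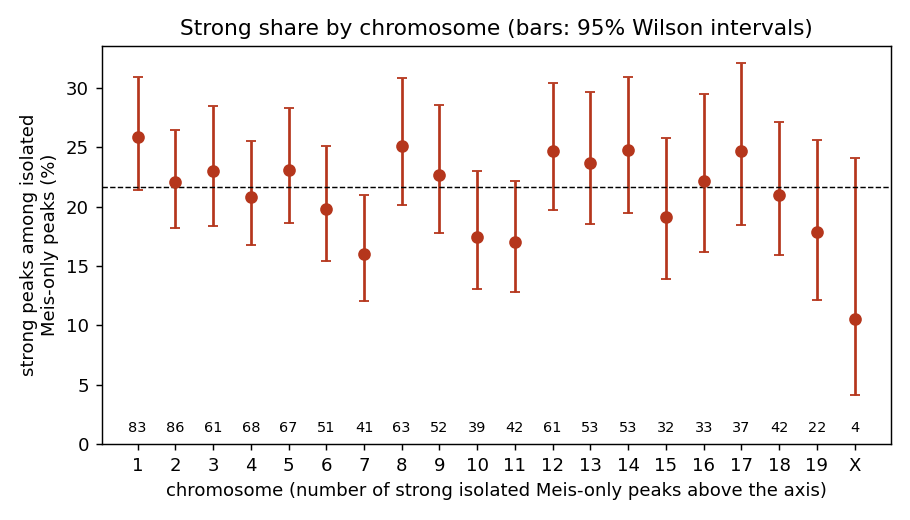
Share of strong peaks (%) among the isolated Meis-only peaks of each chromosome, with 95% Wilson intervals as bars, the share over all chromosomes (21.7%) as a dashed line and the number of strong peaks above the axis. The chromosome 7 bar, from 12.0 to 21.0%, is the only one that misses the line.

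The strongest site of a chromosome had a score between 58.7, on chromosome 8, and 16.5, on X at 34360212 to 34360425. The strongest sites on chromosomes not yet named lay on chromosome 19 at 24466319 to 24466506 (32.6), chromosome 11 at 23999886 to 24000069 (31.6) and chromosome 17 at 8701117 to 8701293 (29.3). They lay also on chromosome 12 at 38267732 to 38267932 (28.6) and chromosome 10 at 69751724 to 69751900 (24.2). Median scores were alike, between 14.6 on X and 17.2 on chromosome 7. Chromosome 7 had the smallest autosomal share of strong sites and also the highest median score of the 20 chromosomes.

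Strong sites were slightly narrower than weak ones. Width comes from the same peak calls as the score, so it is given as a description. The median was 203.5 bp (quartiles 183 and 224 bp; 95% interval of the median 201 to 206 bp) for strong sites and 212 bp (190 and 236 bp; 211 to 213 bp) for weaker ones. Peaks over 250 bp made up 11.4% of the strong sites (113) and 15.5% of the weaker ones (555; 14.6% of all isolated Meis-only peaks). Peaks under 150 bp made up 3.43% (34) and 3.47% (124; 3.46% of all), a difference of -1.20 to 1.41 points. Strong isolated peaks that overlapped a Prep peak had a median width of 194 bp (n = 172), and strong Meis-only peaks with a close Meis neighbour 202 bp (n = 211). Within the set, width fell from a median of 207 bp at scores below 15 to 188 bp in the 7 peaks of at least 40. Spearman's rho of score with width was -0.05 across the 990 sites, which share 1 library. The widths ranged from 48 bp, on chromosome 12 at 80695953 to 80696000 (score 14.1), to 354 bp, on chromosome 1 at 42945432 to 42945785 (score 15.9). A peak of 52 bp on chromosome 14 at 15135081 to 15135132 scored 30.6. These peaks were chosen after their widths were seen.

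Spearman's rho of score with the distance to the nearest Prep peak was -0.01 and with that to the nearest Meis peak -0.02, each across 990 peaks of 1 library. The share with a Prep peak within 100 kb was 19.9% (56 of 282) at scores below 15, 21.2% (109 of 515) from 15 to 20 and 22.2% (35 of 158) from 20 to 30. It held 7 of 28 peaks from 30 to 40 and 4 of 7 from 40 on. These shares rose from range to range, with few peaks in the upper ranges, and their order was not tested. Of all isolated Meis-only peaks 23.1% had a Prep peak within 100 kb. The slices of these peaks by score did not rise in this way, with 22.1% in the highest slice and 26.0% in the 9th. The distances to Meis and to Prep peaks went together weakly, with a rho of 0.20.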

How the data were processed

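Peak lists of 2 ChIP libraries were used, 1 per antibody. Reads were aligned with BWA to mm9, per the submitters' processing notes. The deposited value is a score per peak, per the file headers, and each peak is named with the tag "pics". Nothing in the sources used here gives the scale of the score, how the caller was set, whether the input was used or which filters followed. Read depth is unknown. The positions, deposited in bp, were read as BED, and 1 was added to each start. The numbers in the Meis peak names run to 5692, and for 6 of these numbers the list used here has no peak.

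Distances were taken between peak centres. Shares carry 95% Wilson intervals and differences of shares 95% Newcombe intervals, 24 in all, of which 7 left out 0. They are not adjusted for their number. Medians carry binomial order-statistic intervals. The functions were tested on simulated lists.

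The members and the lists of peaks were chosen with earlier results of these data known. By rule, the text names the 20 strongest sites, 5 on each side of the limit, the 5 nearest to Prep, the 5 farthest from Meis, the strongest of each chromosome and the 5 groups with most sites (ties to the higher top score). Other named peaks were picked with their values in view. The gene table at hand is for GRCm38.p6, so peaks were assigned to no gene, and motifs, gene lists and sequences were not analysed here. Alternatives changed the limits of the rule and the Prep list. Python 3.11.15, numpy 2.4.6, pandas 2.3.3, scipy 1.17.1 and matplotlib 3.10.9 were used.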

Additional observations from a re-analysis of the deposited data

How the results depend on the processing

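The share with a Prep peak within 100 kb kept within its interval under 10 of 11 alternatives, and the difference within 10 kb kept its direction under 11 and left out 0 under 10. Several alternatives could change little. Peaks set to 200 bp left 990 strong sites and the same 10 kb difference. Autosomes left 986 strong sites, no Prep centre within 1 kb 985 and a Prep overlap of 50% of the Meis peak 996. With the score limit at the highest-scoring 10% of the Meis list (17.9), 341 sites were left, 34.3% had another site within 1 Mb, the median width was 200 bp, the 100 kb Prep difference was 0.101 points and the difference in neighbours with Prep overlap -2.30 points (interval including 0). At the highest-scoring 50% (10.7) these values were 2258 sites, 86.7% and 207 bp, and the last difference turned to 0.762 points. Isolation by 5, 20 or 50 kb gave 53.3, 44.1 or 26.7% with a Meis peak within 100 kb and 67.0, 59.8 or 50.5% with another site within 1 Mb, as the rule itself removes neighbours; the difference in strong sites within 100 kb was 1.81 (20 kb) or 1.46 points (50 kb) with 0 in the interval, and that in neighbours with Prep overlap -1.49, -1.46 or -1.11 points. Choosing the sites anew against the highest-scoring 50% of the Prep list, which left 1114 strong and 3675 weaker ones, gave 11.8% with Prep within 100 kb and 67.6% with another site within 1 Mb, a 10 kb difference of -0.591 points and a neighbour difference of 0.0319 points. The neighbour difference also had 0 in its interval with a Prep overlap of 50% of the Meis peak (-1.47 points) and with peaks set to 200 bp (-1.72 points), so it depends on these settings. Without the 5 groups with most sites, which was tried after seeing the data like all alternatives of the differences, the difference in strong sites within 100 kb was 2.77 points (0.360 to 5.40). The cause of these shifts was not tested. A width of 200 bp gives no value for the median width. Motif and gene-distance alternatives were not run. No paired analysis was possible because each antibody has 1 library, and no replicate could be left out. Unknown depth limits which weak Prep signals could be listed.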
